A study of Mus musculus with 84 samples.

Results

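The levels and chromatin marks of 9 tight junction genes were examined in mouse colon epithelium. They were 7 claudin genes (Cldn2, Cldn3, Cldn4, Cldn7, Cldn8, Cldn15 and Cldn23), the scaffold gene Tjp1 and the occludin gene Ocln, taken by symbol from the 25494 genes of the RNA-seq count table. All 9 were in the table and passed the filter on low counts, which kept 15893 genes. ChIP-seq peaks were counted at a gene when they overlapped its locus extended by 10 kb on either side, here called its window.

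The study asked how an obesogenic diet and the gut bacteria that come with it act on the epigenome and transcriptome of the colon. C57BL/6 mice were used throughout, and the groups without stool transfer were males and females kept singly from 6 weeks of age on a high fat diet (HFD, 60% fat) or a low fat diet (LFD, 10% fat) for up to 20 weeks. Peak lists of H3K27ac, a histone mark of active promoters and enhancers, and of H3K4me1, which marks enhancers whether active or not, numbered 3 per sex and diet, and HNF4α, a nuclear receptor of gut epithelium, had 2 lists per diet in males only. In the transfer experiment, germ-free male mice of 6 weeks received stool of male donors fed the HFD (high fat bacteria, HFB) or the LFD (low fat bacteria, LFB) and were themselves fed the HFD or the LFD for 5 weeks.

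The recipients formed the groups HFDHFB, HFDLFB, LFDHFB and LFDLFB, named by the recipient's diet and then the donor's. Each had 3 RNA-seq libraries and 3 H3K27ac lists, apart from 2 lists in HFDHFB. All recipient samples used here were male, so that sex could not be compared there, although the paper also transferred stool to females. All recipients were born germ-free, so that no group carried bacteria from birth. The tissue was prepared differently for the assays, because cells were shaken off the colon in EDTA for ChIP-seq and scraped from it for RNA-seq. The labels number the replicates and do not name the animals, so p-values measure only the spread between these samples.

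Tight junctions close the space between neighbouring epithelial cells near their luminal edge and set which ions and molecules may pass. Claudins form the strands of the junction, some as a seal and some as a pore, and the mixture of claudins sets the leakiness of an epithelium. Occludin lies in the same strands, and ZO-1, the product of Tjp1, ties strand proteins to the actin cytoskeleton.

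The RNA-seq libraries held 39904191 to 48026846 counted reads. The tissue label was checked with marker genes. All 8 epithelium markers (among them Epcam, Krt8 and Vil1) were found in every library. Their summed level was 12969 to 14557 CPM (counts scaled to a normalized library total of 1e6) in HFDHFB and 10280 to 13335 in HFDLFB. It was 10119 to 15542 in LFDHFB and 13788 to 14945 in LFDLFB. Markers of other tissues of the colon wall were found too, and none of them was at 0 in any library. The summed smooth muscle markers (8 of 8 in the table) ranged from 1977 to 7069 CPM in HFDHFB, 1093 to 4913 in HFDLFB, 2092 to 5351 in LFDHFB and 2245 to 4607 in LFDLFB, and the upper values belonged to 5 libraries, HFDHFB 2 and 3, HFDLFB 1, LFDHFB 3 and LFDLFB 2. Adipocyte markers (8 of 8) summed to 37.4 to 406 CPM in HFDHFB, 336 to 2897 in HFDLFB, 38.8 to 961 in LFDHFB and 98.3 to 224 in LFDLFB. Mesothelium markers (7 of 8) summed to 97.5 to 505 CPM in HFDLFB and to at most 208 in the other groups. The first principal component of the 12 libraries held 42.5% of the variance, with LFDHFB 3 and HFDLFB 1 farthest out on it. In such bulk samples, fewer cells of a type and less RNA per cell cannot be told apart.

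Cldn3 and Cldn7, both claudins of the seal, were the most abundant of the 9 genes. Per kb of merged exon, Cldn3 had 404 ± 68.6 CPM (SD, n = 12 libraries) and Cldn7 403 ± 50.7 CPM (SD, n = 12), and the 2 did not differ beyond their spread. The lowest library of Cldn3 (271 CPM per kb) stood above the highest of Cldn15 (77.0 CPM per kb). Below them, the order by mean CPM per kb was Cldn15 (54.0 ± 14.7), Ocln (48.8 ± 8.16), Cldn4 (35.4 ± 8.43), Cldn23 (28.9 ± 7.39), Tjp1 (26.9 ± 5.68), Cldn2 (26.0 ± 7.11) and Cldn8 (24.7 ± 10.5; SD, n = 12 each). In this order every pair of neighbours from Cldn15 down overlapped over the libraries.

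**Figure D1:**
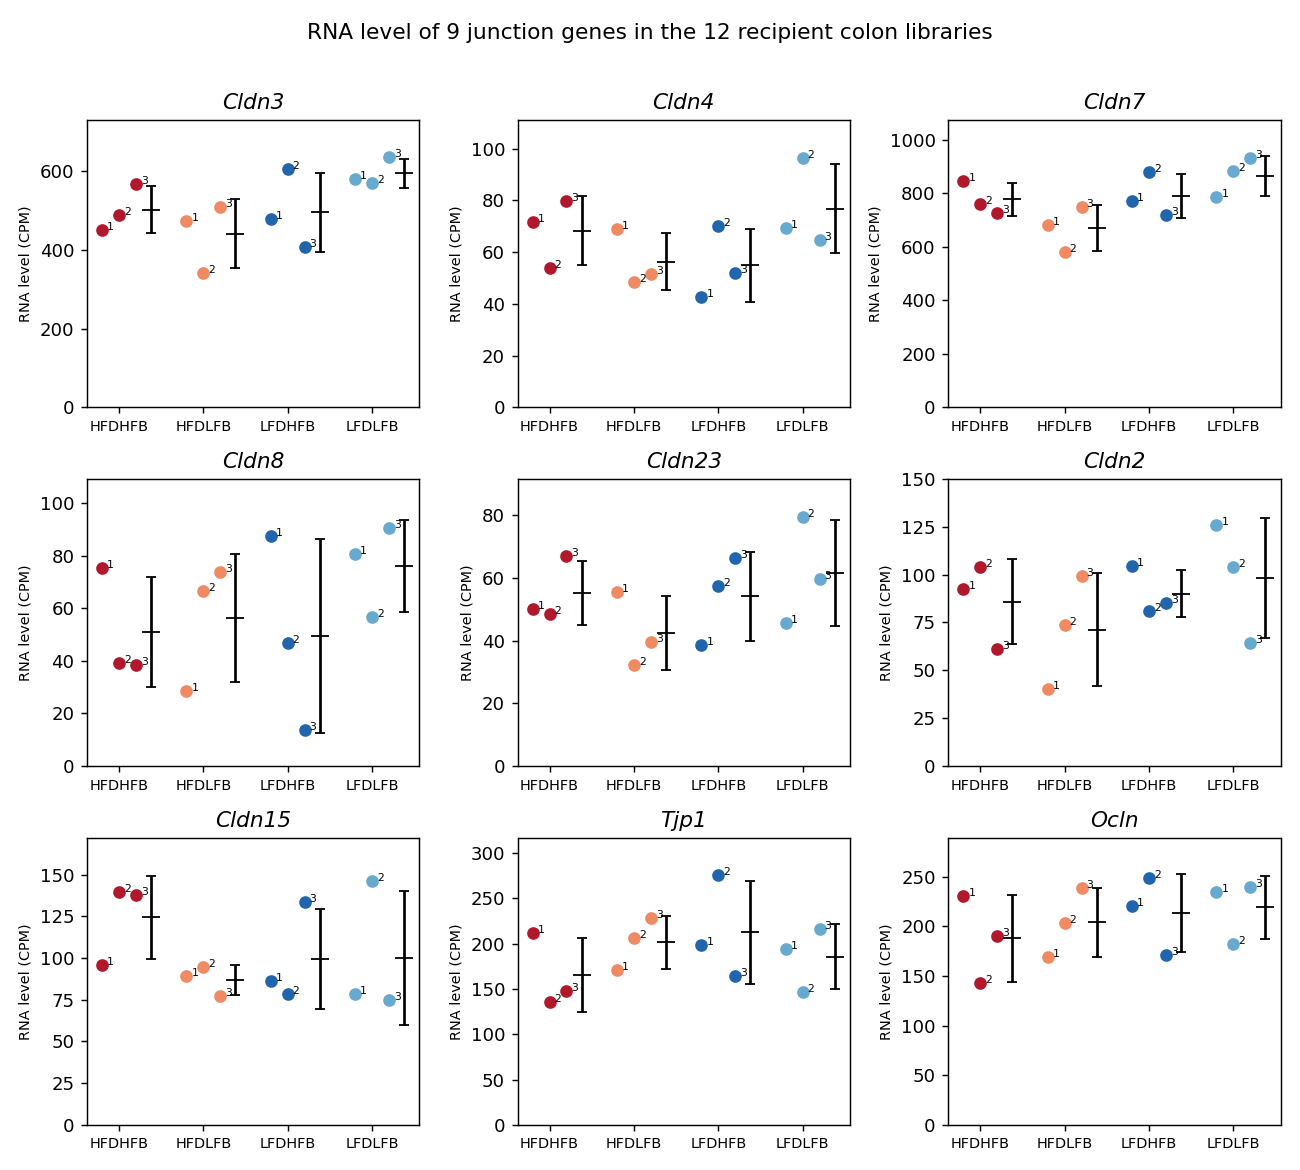
RNA level of the 9 genes in CPM (linear axes from 0, 1 panel per gene), with 1 numbered point per library and, beside each group of 3, its mean and a bar of 1 SD either way. Cldn3 and Cldn7 are on the largest scales, Cldn8 falls to 13.8 CPM in LFDHFB 3, and the groups overlap for most genes.

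The barrier-forming claudins were described first. Cldn3 (gene ID 12739, chr5:135462084-135463346 of mm9, plus strand, of which the last bases overlap the antisense transcript Wbscr25) had 450.3, 489 and 567 CPM in HFDHFB 1 to 3 and 473, 342 and 508 CPM in HFDLFB. In LFDHFB it had 477, 605 and 406 CPM and in LFDLFB 579, 569 and 637 CPM. The LFDLFB libraries were all above those of HFDLFB and, narrowly, of HFDHFB, and every other pair of groups overlapped.

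Cldn7 (gene ID 53624, chr11:69778281-69781388, plus strand), a claudin of the lateral membrane, had 844, 760.3 and 725 CPM in HFDHFB and 681, 579.6 and 748 CPM in HFDLFB. It had 770.1, 878 and 719 CPM in LFDHFB and 784, 883 and 930.0 CPM in LFDLFB. The LFDLFB libraries were all above those of HFDLFB , as for Cldn3, and HFDLFB 2 was the lowest library of all. Cldn7 had the narrowest range of the 9, 1.6-fold from the lowest library to the highest, and its SD of log2 CPM was at percentile 24.3 of all genes tested.

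Cldn4 (gene ID 12740, chr5:135420993-135422804, minus strand), a claudin of surface colonocytes, had 71.7, 53.7 and 79.7 CPM in HFDHFB, 69.1, 48.4 and 51.5 in HFDLFB, 42.5, 70.1 and 51.9 in LFDHFB and 69.4, 96.4 and 64.5 in LFDLFB. Its highest library was LFDLFB 2, and every pair of groups overlapped. Cldn23 (gene ID 71908, chr8:36887763-36889613, minus strand), a claudin of differentiated colonocytes, ranged from 32.2 CPM in HFDLFB 2 to 79.4 CPM in LFDLFB 2.

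Cldn8 (gene ID 54420, chr16:88561071-88563428, minus strand), a claudin of the distal colon that limits the leak of sodium back into the lumen, varied most. It ranged 6.57-fold, from 13.8 CPM in LFDHFB 3 to 90.6 CPM in LFDLFB 3, and its SD of log2 CPM was at percentile 86.9 of all genes tested. The variation lay within groups, since the LFDHFB libraries alone had 87.3, 46.9 and 13.8 CPM.

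Of the pore-forming claudins, Cldn2 (gene ID 12738, chrX:136335347-136345927, plus strand), which passes small cations and water and is found in leaky epithelium, ranged from 40.4 CPM in HFDLFB 1 to 126 CPM in LFDLFB 1. Cldn15 (gene ID 60363, chr5:137443739-137451715, plus strand), which passes sodium, had 95.8, 139 and 138 CPM in HFDHFB and 89.4, 94.4 and 77.1 CPM in HFDLFB. It had 86.4, 78.5 and 134 CPM in LFDHFB and 78.5, 146 and 74.8 CPM in LFDLFB. The HFDHFB libraries were all above those of HFDLFB, narrowly so at 95.8 against 94.4 CPM. The share of all genes without overlap between these groups was not computed. Of the 5 libraries rich in smooth muscle markers, 4 held the 4 highest values.

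Tjp1 (gene ID 21872, chr7:72441051-72516130, minus strand) had 212, 136 and 147 CPM in HFDHFB, 171, 206 and 228 CPM in HFDLFB, 198, 275 and 164 CPM in LFDHFB and 194, 146 and 216 CPM in LFDLFB. Ocln (gene ID 18260, chr13:101267322-101322453, minus strand) had 231, 143 and 190.3 CPM, 169, 203 and 239 CPM, 220.1, 249 and 171 CPM, and 235, 183 and 240.1 CPM in the same order of groups. For both genes, the 5 libraries rich in smooth muscle markers were the 5 lowest, whatever their group.

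Across the 12 libraries, which share tissue preparation and sequencing, Tjp1 and Ocln varied together (Pearson r of log2 CPM 0.87, rho 0.88), and Cldn15 ran the other way (r −0.86 with Tjp1 and −0.79 with Ocln). The summed smooth muscle markers had r 0.79 with Cldn15, −0.85 with Tjp1, −0.79 with Ocln and −0.69 with Cldn8. Cldn3 and Cldn7 had r 0.79 with each other, and 0.84 and 0.81 with the summed epithelium markers. Cldn4 and Cldn23 had r 0.74 with each other, and Cldn2 had r −0.73 with the fibroblast, −0.71 with the mesothelium and 0.71 with the proliferating crypt markers. These are descriptions over 12 libraries, and the part of other cell types in them was not tested.

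The genes whose log2 CPM ran most like each member's, by Pearson r over the 12 libraries among the 15892 other genes tested, were Slc1a1 (r 0.97) and Tmprss2 (0.96) for Cldn8, Tmem2 (0.99) and Elk4 (0.98) for Tjp1, and Mapkap1 (0.95) and Dlg3 (0.95) for Ocln. For Cldn15 they were Tle1 (0.96) and Pomgnt2 (0.95), and for Cldn2 Hars2 (0.94) and Lrig1 (0.94). For Cldn3 they were Nectin2 (0.92) and Rnpepl1 (0.91), for Cldn7 Tnk1 (0.93) and Tmem115 (0.93), for Cldn4 Dusp8 (0.91) and Spire2 (0.86), and for Cldn23 Cystm1 (0.93) and Ano10 (0.88).

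**Figure D2:**
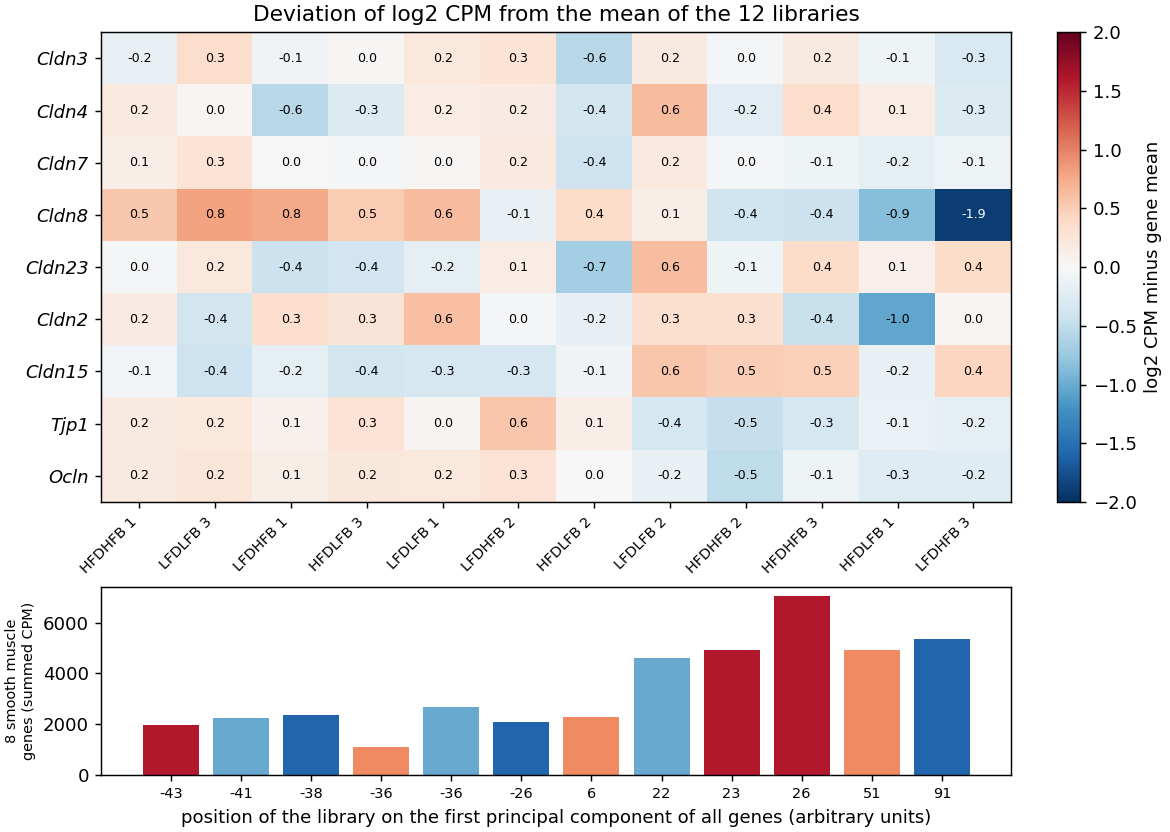
Upper panel, log2 CPM of each gene minus its mean over the 12 libraries, with genes in lines and libraries in the order of the first principal component; lower panel, summed CPM of 8 smooth muscle markers in the same libraries, coloured by group. In the 5 libraries at the right, which have the highest smooth muscle sums (4607 to 7069 CPM), Tjp1 and Ocln are low and Cldn15 is high in 4, and Cldn8 is lowest in LFDHFB 3.

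The chromatin at the 9 genes was then described. In the mice on the long-term diets, H3K27ac covered the annotated start of 8 of the 9 genes in all 12 lists. The exception was Cldn2, whose start had no H3K27ac peak in any of the 12 lists or of the 11 recipient lists, although H3K27ac covered 47.3% to 62.3% of its window in the long-term lists. Counted from the start, with negative values upstream, its nearest H3K27ac regions were centred at −1.95 kb and, over its exons, at 9.05 kb, and both were in all 12 lists.

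H3K27ac covered most of the window of Cldn3 (77.7% to 82.4% over 12 lists) and of Ocln (65.5% to 78.3%). It covered 64.2% to 80.7% at Cldn4, 49.3% to 64.0% at Cldn7, 50.4% to 63.2% at Cldn23, 43.8% to 50.3% at Cldn15 and 17.9% to 46.5% at Cldn8. At Tjp1, which has the longest window, it covered 10.1% to 23.8%, in 3 regions centred 6.83, 20.9 and 33.0 kb from the start that were in all 12 lists and 1 farther region that was in 1 list. The windows of 5 genes (Cldn3, Cldn4, Cldn7, Cldn15 and Ocln) hold another annotated gene, such as Wbscr27 at Cldn4 and Gtf2h2 at Ocln, so that peaks there need not belong to the junction gene. H3K4me1 lay over the start of Cldn4 and Cldn15 in all 12 lists and of Cldn7 and Cldn8 in 11 of 12. It was over the start of Ocln in none, of Tjp1 and Cldn23 in 1, of Cldn3 in 2 and of Cldn2 in 4 of the 12 lists.

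HNF4α peaks of the 4 male lists merged into 34 sites in the 9 windows, of which 11 were in all 4 lists, 8 in 3, 6 in 2 and 9 in 1. The 11 sites belonged to 6 genes, with 3 at Cldn7, 2 each at Cldn3, Cldn23 and Ocln, and 1 each at Cldn15 and Tjp1. Cldn2 and Cldn4 had 3 sites each and Cldn8 had 1, none of them in all lists. Over all 25494 genes, 62.62% of windows had a site and 20.67% had one in all 4 lists, and longer genes have longer windows. These shares include genes that failed the filter on low counts, which all 9 members passed. The shares among genes that passed were not computed. All 11 sites lay under H3K27ac peaks of all 6 male lists and 8 of them under H3K4me1 of all 6. Of the 34 sites, 27 lay under H3K27ac in all 6 lists and 4 in none. The share of all HNF4α sites of the genome under these marks was not computed, so these counts cannot be called particular to the 9 genes.

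A selection of the sites in all 4 lists that reach no untranslated region is shown here for Cldn3, Cldn7, Cldn23 and Ocln, together with a Tjp1 site in 2 lists that borders the H3K27ac difference described further on. Each sequence is the interval shared by the lists that hold the peak, read from the plus strand of mm9. Capitals mark a match to CAAAGNNCA or its reverse complement TGNNCTTTG, a loose form of the half-site pair bound by HNF4α, and a sequence without capitals has none. The Cldn3 sites lie at −4.94 and −2.87 kb from the start, and the Cldn7 site shown at 4.2 kb, past the end of the gene. The Cldn23 sites lie at −0.179 kb and at 6.37 kb, also past the end of the gene, and the Ocln sites and the Tjp1 site lie in introns, the former 19.5 and 30.5 kb and the latter 23.2 kb from the start. The match of the Ocln site at 19.5 kb lies outside the interval shared by its lists.
Cldn3 far upstream site (chr5:135457039-135457229): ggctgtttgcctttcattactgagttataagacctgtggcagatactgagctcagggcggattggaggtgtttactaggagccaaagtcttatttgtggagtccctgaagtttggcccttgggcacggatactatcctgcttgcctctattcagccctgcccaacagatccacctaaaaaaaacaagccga
Cldn3 near upstream site (chr5:135459104-135459316): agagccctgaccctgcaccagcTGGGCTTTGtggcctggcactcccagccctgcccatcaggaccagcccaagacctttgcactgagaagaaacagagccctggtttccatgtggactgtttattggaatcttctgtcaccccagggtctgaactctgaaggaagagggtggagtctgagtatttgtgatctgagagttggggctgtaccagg
Cldn7 downstream site (chr11:69782390-69782593): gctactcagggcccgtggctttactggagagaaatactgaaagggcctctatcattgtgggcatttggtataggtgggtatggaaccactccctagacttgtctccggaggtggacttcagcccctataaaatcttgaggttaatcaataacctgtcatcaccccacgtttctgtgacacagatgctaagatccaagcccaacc
Cldn23 start-proximal site (chr8:36889708-36889887): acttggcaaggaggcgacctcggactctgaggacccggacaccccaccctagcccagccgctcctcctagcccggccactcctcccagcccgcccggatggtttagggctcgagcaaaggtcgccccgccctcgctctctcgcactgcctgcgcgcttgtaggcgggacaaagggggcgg
Cldn23 downstream site (chr8:36883141-36883355): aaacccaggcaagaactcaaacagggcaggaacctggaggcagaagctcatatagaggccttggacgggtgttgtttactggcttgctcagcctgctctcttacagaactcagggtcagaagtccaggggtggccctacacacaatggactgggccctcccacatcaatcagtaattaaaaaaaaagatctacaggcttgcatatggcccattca
Ocln intron site nearer the start (chr13:101302956-101303048): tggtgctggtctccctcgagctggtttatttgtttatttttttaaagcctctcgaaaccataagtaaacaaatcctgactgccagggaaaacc
Ocln intron site farther from the start (chr13:101291827-101292044): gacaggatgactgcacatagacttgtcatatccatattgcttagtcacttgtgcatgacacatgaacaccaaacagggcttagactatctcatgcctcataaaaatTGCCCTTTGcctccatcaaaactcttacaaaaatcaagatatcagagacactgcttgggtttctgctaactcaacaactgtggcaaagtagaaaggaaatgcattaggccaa
Tjp1 intron site (chr7:72492822-72493031): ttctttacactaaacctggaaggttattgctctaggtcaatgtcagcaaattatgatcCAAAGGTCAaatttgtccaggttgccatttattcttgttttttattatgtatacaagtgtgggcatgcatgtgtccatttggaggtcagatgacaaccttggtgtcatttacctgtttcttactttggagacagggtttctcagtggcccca

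The Tjp1 site holds CAAAGGTCA, 1 of 4 stricter cores searched on both strands (CAAAGGCCA, CAAAGGTCA, CAAAGTCCA and CAAAGTTCA, all of which also match the loose form). A strict core was in 3 of the 34 merged sites (8.82%), against 12.8% of the 49519 HNF4α sites of the genome, and the loose form was in 9 (26.5%) against 21.1%. Of the 11 sites in all 4 lists none held a strict core and 3 the loose form, where 27.1% and 40.1% of the 8494 such sites of the genome did. The absence of these letters says nothing of how HNF4α is held there. With 2 lists per diet an exact test cannot give a p below 0.333, so the diets were not tested. Sites in both HFD lists and neither LFD list numbered 1, in an intron of Ocln 34.1 kb from its start. The reverse pattern was seen at 2 sites, 13.5 kb from the start of Cldn2 and 59.1 kb from that of Ocln. The share of all HNF4α sites of the genome with either pattern was not computed, and the 4 lists differed in size (21308 to 27766 peaks).

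The effect of donor bacteria on RNA was examined first in HFD-fed recipients. None of the 9 genes passed an adjusted p of 0.05 between HFDHFB and HFDLFB, and 0% of all 15893 genes did (edgeR quasi-likelihood test with Benjamini-Hochberg adjustment), against 9.07% at an unadjusted p under 0.05 and 80 genes with DESeq2, no member among them. Cldn15 had the largest difference, 0.52 ± 0.28 higher on the log2 scale in HFDHFB (SE, 1.43-fold, adjusted p = 0.60 in edgeR), which did not pass. Cldn23 (0.38 ± 0.27), Cldn4 (0.28 ± 0.23), Cldn2 (0.27 ± 0.33), Cldn7 (0.21 ± 0.15) and Cldn3 (0.19 ± 0.19) had positive log2 differences, and Tjp1 (−0.29 ± 0.23), Cldn8 (−0.14 ± 0.55) and Ocln (−0.12 ± 0.21) negative ones. The median over the 9 was 0.21, against −0.002 over all genes tested, and without HFDLFB 1 and 2, the libraries highest in mesothelium and fibroblast markers, it was −0.02. It was 0.13 without HFDLFB 2 and 0.22 without LFDHFB 3 and HFDLFB 1. All 7 mesothelium and 8 adipocyte markers measured had negative log2 differences in this comparison and all 8 smooth muscle markers positive ones.

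In LFD-fed recipients, the difference between LFDHFB and LFDLFB was negative for 8 of the 9 genes, and none passed the adjusted threshold, with 0% of all genes called in edgeR, 3.72% at an unadjusted p under 0.05 and 0 genes in DESeq2. Cldn4 had the smallest p among members, at a log2 difference of −0.49 ± 0.23 (SE, 0.714-fold, unadjusted p = 0.058 and adjusted p = 0.98 in edgeR). Cldn8 had −0.62 ± 0.55, with LFDHFB 3 as its lowest library, and −0.18 when LFDHFB 3 and HFDLFB 1, the latter in neither group, were left out. Tjp1 was the one positive value (0.20 ± 0.23). The median was −0.13 against 0.02 over all genes tested, and that of the 8 epithelium markers was −0.11.

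**Figure D3:**
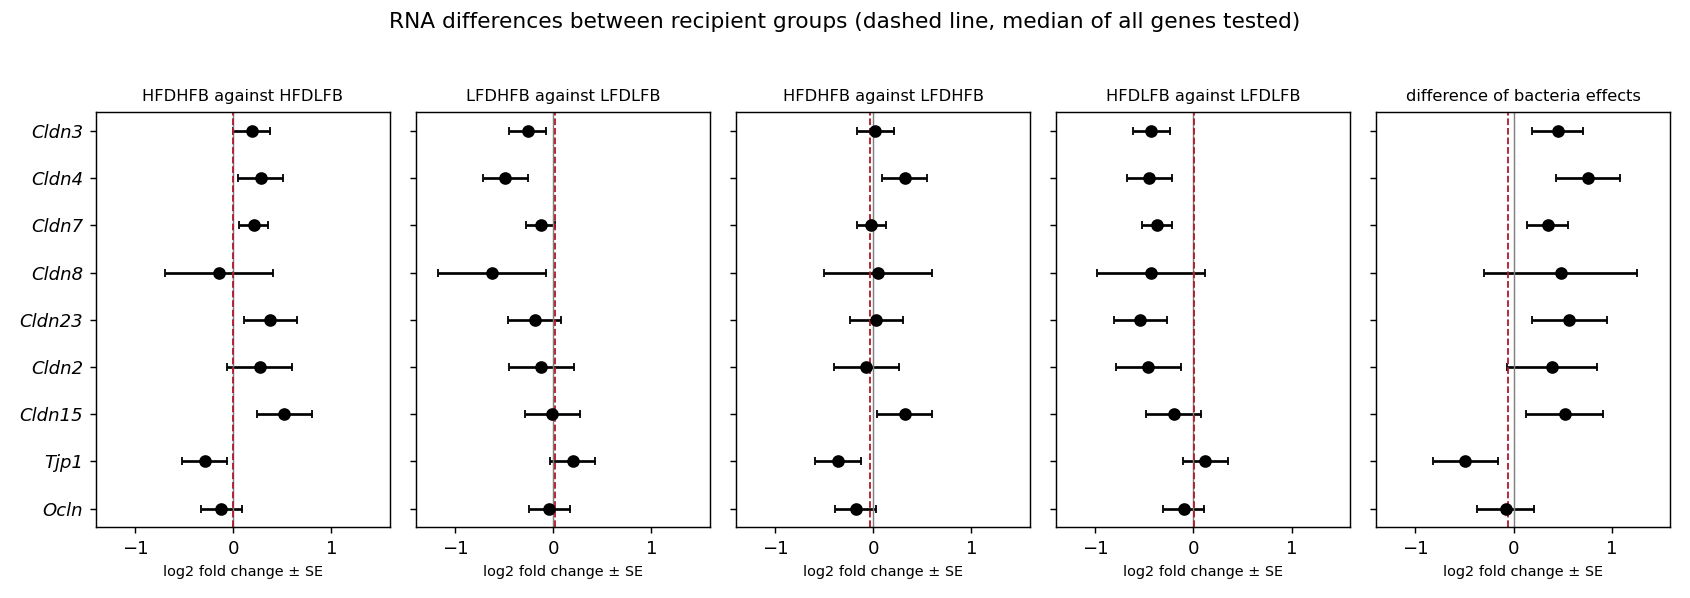
Log2 fold change of each gene (points, with bars of 1 SE) in the 4 comparisons of 2 groups and in the interaction, 1 panel each, with a dashed line at the median of all genes tested. The genes take both signs when the diets are compared with HFB, and 8 of 9 lie below 0 when they are compared with LFB, where none passed the adjusted threshold.

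The recipient's diet was compared within each donor. With LFB, 8 of the 9 genes had lower means in HFDLFB than in LFDLFB, and none passed the adjusted threshold (0% of all genes in edgeR, with 5.33% at an unadjusted p under 0.05 and 9 genes in DESeq2, none a member). Cldn7 differed by −0.37 ± 0.15 (SE, 0.774-fold) and Cldn3 by −0.43 ± 0.19 (0.741-fold), with unadjusted p of 0.027 and 0.041 and an adjusted p of 0.88 for both in edgeR. Their libraries did not overlap between the diets, as given above, which adds nothing to these p-values. The share of all genes without overlap was not computed. Cldn23 (−0.54 ± 0.27), Cldn2 (−0.46 ± 0.33), Cldn4 (−0.45 ± 0.23), Cldn8 (−0.43 ± 0.55), Cldn15 (−0.20 ± 0.28) and Ocln (−0.10 ± 0.21) also had negative values, and Tjp1 was at 0.12 ± 0.23.

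The median over the 9 genes was −0.43, against 0.004 over all genes tested. The 8 epithelium markers were all negative, with a median of −0.24, while all 8 adipocyte markers and all 7 mesothelium markers were positive, with medians of 3.21 and 1.58. HFDLFB 2, the lowest library of Cldn3 and Cldn7, had the lowest epithelium sum of its group (10280 CPM) and the highest adipocyte sum of all (2897 CPM). Without it, both Cldn3 and Cldn7 were at −0.28, and without HFDLFB 1 and 2 they were at −0.22 and −0.21, with the median of the 9 at −0.21. The part of the other cell types in these values was not tested.

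With HFB, the members' differences between the diets took both signs. The log2 difference of HFDHFB from LFDHFB was positive for 5 and negative for 4, from −0.36 ± 0.23 for Tjp1 (SE, unadjusted p = 0.14 in edgeR) to 0.32 ± 0.23 for Cldn4 and 0.32 ± 0.28 for Cldn15, with a median of 0.02 against −0.03 over all genes tested. Without LFDHFB 3 and HFDLFB 1, the latter in neither group, 3 were positive and 6 negative with a median of −0.11, and Cldn8 went from 0.05 to −0.40 and Cldn15 from 0.32 to 0.59. None passed the adjusted threshold, nor did any other gene in edgeR (0%, with 7.46% at an unadjusted p under 0.05), and DESeq2 called 126 genes, no member among them.

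The interaction asks whether donor bacteria acted differently under the 2 diets. It was positive for 7 of the 9 genes, with a median of 0.45 against −0.05 over all genes tested, and no gene passed the adjusted threshold in edgeR (0%, with 11.3% at an unadjusted p under 0.05 and 73 genes in DESeq2, none a member). The median was 0.18 (6 positive, 3 negative) without HFDLFB 1 and 2 and 0.30 (6 positive, 3 negative) without LFDHFB 3 and HFDLFB 1, where Cldn8 went from 0.48 to −0.28. Cldn4 had a value of 0.76 ± 0.33 on the log2 scale (SE, unadjusted p = 0.038 and adjusted p = 0.43 in edgeR). Its mean was higher with HFB than with LFB under the HFD, at 68.4 ± 13.3 and 56.4 ± 11.2 CPM (SD, n = 3 each), and lower under the LFD, at 54.9 ± 14.0 and 76.8 ± 17.2 CPM. The 4 comparisons and the interaction share libraries, so their values are not independent. The epithelium markers had an interaction median of 0.30, with 7 of 8 positive.

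Other junction genes were compared in the same fits, and none passed the adjusted threshold in any comparison. Of 19 other claudins in the table, 6 passed the filter on low counts, of which Cldn12 had group means of 80.9 to 87.9 CPM and the other 5 reached at most 11.4 CPM in any library. Cldn10 had the smallest p of this list for bacteria in HFD-fed mice (log2 difference −1.58, unadjusted p = 0.0062 in edgeR) and for the diet with LFB (1.21, unadjusted p = 0.024), at 2.45 to 2.67 CPM in HFDHFB and 2.89 to 11.4 CPM in HFDLFB. Cldn11 had the smallest p for bacteria in LFD-fed mice (1.16) and for the interaction (−1.66), at under 1 CPM in every library, and Cldn5, the claudin of blood vessels, for the diet with HFB (0.46).

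All 26 other tight junction genes were tested, with medians between −0.19 and 0.07 over the 5 comparisons. The smallest p belonged to Cgnl1 for bacteria in HFD-fed mice (−0.59, unadjusted p = 0.022 in edgeR), to Tjp3, which encodes ZO-3, in LFD-fed mice (−0.27, unadjusted p = 0.084), to Arhgef2 for the diet with HFB (−0.36, unadjusted p = 0.016), to Mpdz for the diet with LFB (1.37, unadjusted p = 0.042) and to Pals1 for the interaction (−0.72, unadjusted p = 0.019). Of 16 genes of adherens junctions and desmosomes, Ppl, the desmosomal periplakin, had the smallest p for bacteria in HFD-fed mice (−1.04, unadjusted p = 0.0025), for the diet with LFB (0.93, unadjusted p = 0.0049) and for the interaction (−1.26, unadjusted p = 0.0062 in edgeR). Dsc2 (0.33) had it for bacteria in LFD-fed mice and Dsg2 (−0.39) for the diet with HFB.

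The marker gene with the smallest p of each list is given by its log2 difference beside the count and median of its list, since single genes can differ in sign from their list. None passed the adjusted threshold in edgeR. For bacteria in HFD-fed mice, Krt18 (0.41) stood in an epithelium list with 6 of 8 positive (median 0.17), Guca2a (0.68) in a surface colonocyte list with 5 of 7 negative (median −0.13) and Birc5 (1.02) in a proliferating crypt list with 8 of 8 positive (median 0.71). Tagln (0.79) stood for smooth muscle (8 of 8 positive, median 0.77), Dcn (−1.67) for fibroblasts (6 of 8 negative, −0.25), Esam (−1.33) for endothelium (8 of 8 negative, −0.37), Ptprc (−0.48) for leukocytes (8 of 8 negative, −0.31), Bnc1 (−2.76) for mesothelium (7 of 7 negative, −2.37) and Lipe (−2.15) for adipocytes (8 of 8 negative, −3.08).

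For bacteria in LFD-fed mice the epithelium gene was Krt19 (−0.23; 7 of 8 negative, median −0.11), the surface colonocyte gene Car1 (1.25; 4 of 7 positive, 0.12) and the proliferating crypt gene Tyms (−0.27; 5 of 8 negative, −0.08). Lmod1 (0.26) came from a smooth muscle list with 4 positive and 4 negative (median 0.01) and Ptprc (0.53) from a leukocyte list with 4 of each (0.07), in which Itgam was at −0.93. Pdgfra (0.38) went against its fibroblast list, which had 5 of 8 negative (median −0.18). Tie1 (−0.25) and Bnc1 (−0.29) had lists with 5 of 8 and 5 of 7 negative (medians −0.06 and −0.10), and Lep (2.69) an adipocyte list with 8 of 8 positive (1.47).

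For the diet with HFB, Krt18 (0.27; 5 of 8 positive, median 0.08), Birc5 (0.57; 8 of 8 positive, 0.19), Des (0.77; 8 of 8 positive, 0.50) and Col1a1 (0.60; 6 of 8 positive, 0.11) were positive. Car1 (−1.02; 6 of 7 negative, median −0.31), Kdr (−0.62; 7 of 8 negative, −0.24), Ptprc (−0.53; 6 of 8 negative, −0.12), Lrrn4 (−1.09; 7 of 7 negative, −0.60) and Plin1 (−1.96; 8 of 8 negative, −1.25) were negative.

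For the diet with LFB, Car1 (0.38) went against its surface colonocyte list, in which the other 6 genes were negative (median −0.18). Krt18 (−0.27; 8 of 8 negative, median −0.24), Mcm6 (−0.58; 8 of 8 negative, −0.38) and Actg2 (−0.55; 5 of 8 negative, −0.18) had the sign of most of their lists. So did Dcn (1.2; 7 of 8 positive, median 0.25), Esam (0.93; 7 of 8 positive, 0.25), Ptprc (0.48; 6 of 8 positive, 0.36), Gpm6a (1.74; 7 of 7 positive, 1.58) and Lep (4.81; 8 of 8 positive, 3.21).

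For the interaction, Krt18 (0.54; 7 of 8 positive, median 0.30), Birc5 (1.10; 8 of 8 positive, 0.63) and Tagln (0.77; 8 of 8 positive, 0.76) were positive. Car1 (−1.4; 5 of 7 negative, median −0.19), Dcn (−1.68; 5 of 8 negative, −0.23), Kdr (−1.17; 8 of 8 negative, −0.34), Ptprc (−1.02; 6 of 8 negative, −0.44), Lrrn4 (−2.90; 7 of 7 negative, −2.29) and Lep (−6.40; 8 of 8 negative, −4.38) were negative.

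The long-term diets were compared by the length of each window under peaks, with the diets permuted within each sex (two-sided exact permutation test, smallest possible p 0.005). For H3K27ac none of the 9 windows passed, where 4.15% of 17317 windows had an unadjusted p under 0.05 and none an adjusted one. The covered lengths overlapped between the diets at every gene. The smallest p was that of Cldn15, where the HFD lists had 13 to 14.1 kb (median 13.5 kb, n = 6) and the LFD lists 12.3 to 13.5 kb (median 13 kb, n = 6), a difference of 0.567 kb (exact permutation test, p = 0.085). At Cldn8 the HFD lists had 5 to 9.80 kb (median 5.80 kb) and the LFD lists 4 to 10.4 kb (median 7.90 kb). Tjp1 had 10.8 to 22.6 kb on the HFD and 9.60 to 19.8 kb on the LFD, with a difference of −0.4 kb among males and of 4.53 kb among females, and these were not apart beyond the spread (exact permutation test, p = 0.31).

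For H3K4me1, too, none of the 9 windows passed between the long-term diets, where 3.42% of 19991 windows had an unadjusted p under 0.05. The smallest p was that of Tjp1, at 34.2, 34.4, 35.8, 36.7, 36.8 and 43.2 kb on the HFD and 32.4, 33.0, 33.8, 33.8, 35.8 and 37.5 kb on the LFD, sexes combined. The diets overlapped, and the mean difference was 2.47 kb (exact permutation test, p = 0.055), with 3.47 kb among males and 1.47 kb among females. No test of whether the diet difference depended on sex passed at the 9 genes for H3K27ac (smallest p = 0.105, exact permutation test, against 3.63% of windows under 0.05) or for H3K4me1 (smallest p = 0.155, exact permutation test, against 4.09%). At Cldn23 the H3K27ac difference was −1.07 kb for males against 0.667 kb for females.

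In the recipients, H3K27ac at 3 of the 9 windows differed with the recipient's diet at an unadjusted p under 0.05, and none passed after adjustment over all windows. Of 17841 windows, 15% had such a p, 14.4% higher on the HFD and 0.555% lower. The HFD lists were larger as a whole, with 42486 to 51873 peaks over 106.7 to 132.2 Mb (n = 5) against 39684 to 45797 peaks over 93.07 to 117.2 Mb on the LFD (n = 6), and the part of this in the single genes was not tested. As a share of each list's covered length, 854 windows were higher and 937 lower. Peaks were called by the authors in each list, and since no reads or scores come with them the depth behind each is unknown.

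Tjp1 had the clearest difference, with more H3K27ac on the HFD. Its window was covered over 23.2 and 28.4 kb in the HFDHFB lists and 18.4, 24.4 and 22.8 kb in HFDLFB. The LFD lists had 11.6, 13.2 and 17.4 kb in LFDHFB and 10.6, 15.8 and 7.20 kb in LFDLFB. The diets did not overlap, and the mean difference was 11.2 kb, at 11.7 kb with HFB and 10.7 kb with LFB (exact permutation test, p = 0.005, the smallest possible, and adjusted p = 0.195). The share of all windows without overlap between the diets was not computed. As a share of all covered sequence the difference was 78.5 bp per Mb (exact permutation test, p = 0.01). The mRNA of Tjp1 in the scraped tissue differed by −0.36 ± 0.23 with HFB and 0.12 ± 0.23 with LFB (log2, SE), neither past the threshold.

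The added coverage at Tjp1 lay at several places. The region over the start, centred 6.93 kb into the gene, had 10600 to 15000 bp under peaks in the HFD lists and 5000 to 12400 bp in the LFD lists. A region of intron 21.4 kb from the start had 3800 to 6600 bp in all 5 HFD lists and at most 2800 bp in the LFD lists, 1 of which had none. Within it lay 4 adjoining bins of 200 bp, 22.43 to 23.03 kb from the start, that were covered in all 5 HFD lists and no LFD list, the one such stretch in the 9 windows. The share of such bins over the genome was not computed. The HNF4α site with CAAAGGTCA shown above, centred 23.2 kb from the start, borders these 4 bins. HNF4α was mapped only in the males on the long-term diets, where this site was in 1 of 2 HFD lists and 1 of 2 LFD lists. In those males it lay under H3K27ac in 4 of 6 lists. Peaks farther into the gene, 37.7 to 73.9 kb from the start, were found in HFD lists only, each in 1 or 2 of them.

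**Figure D4:**
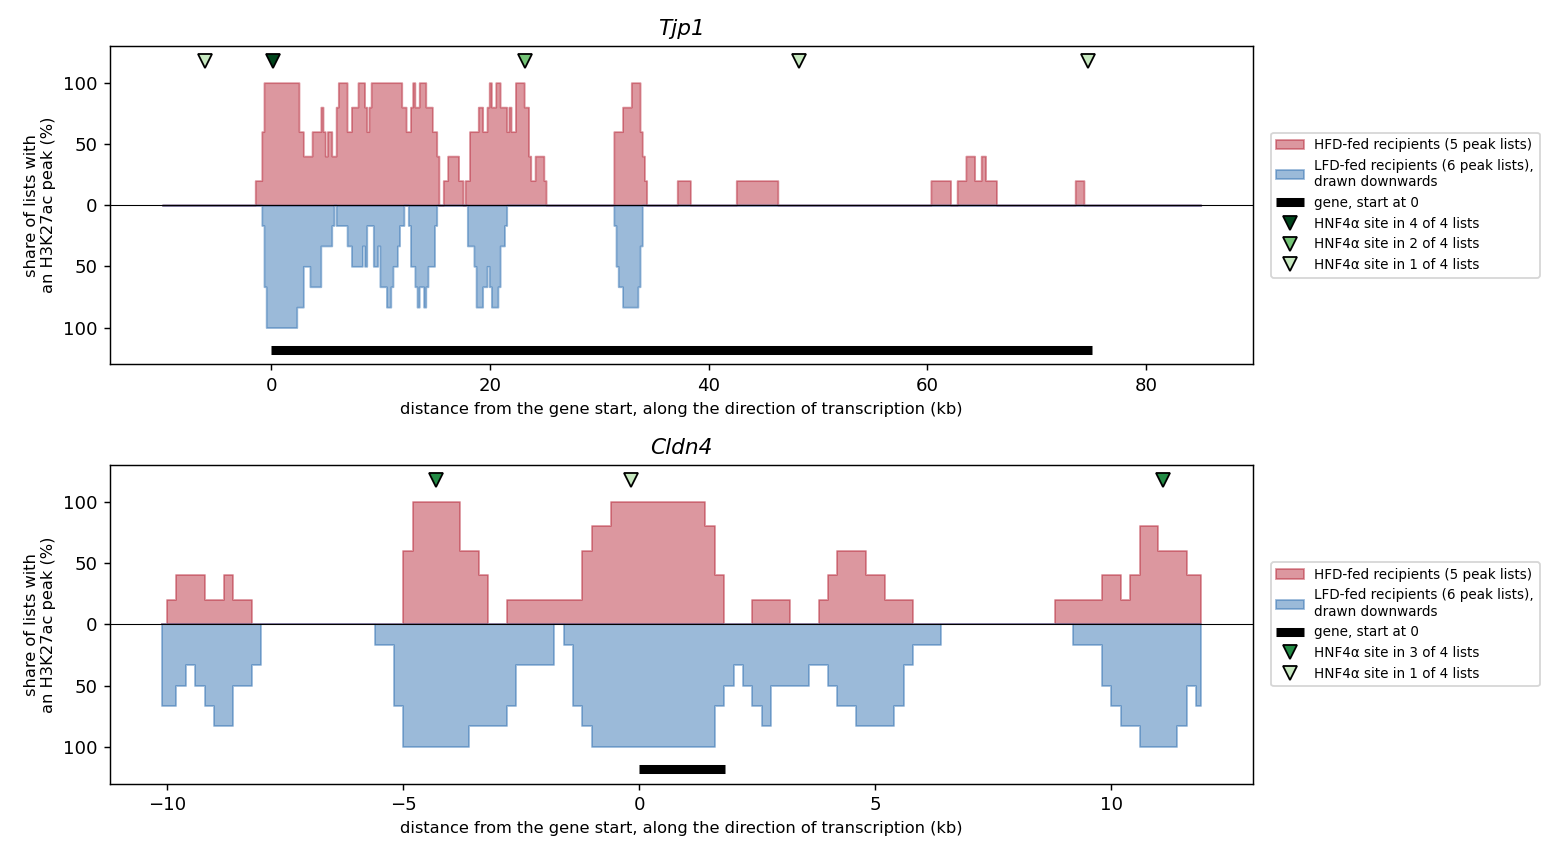
Share of recipient H3K27ac lists (%) with a peak in each 200 bp bin, by distance from the start of Tjp1 and of Cldn4 (kb), with 5 HFD lists drawn upwards and 6 LFD lists downwards, the gene as a black bar and HNF4α sites as triangles shaded by their number of lists. At Tjp1 the HFD lists cover an intron stretch at 22.43 to 23.03 kb that no LFD list covers, and at Cldn4 the LFD lists cover more of the flanks.

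Cldn4 had less H3K27ac on the HFD. It was covered over 5.61 and 9.81 kb in HFDHFB and 7.80, 4.80 and 7.60 kb in HFDLFB, against 11.6, 9.01 and 11 kb in LFDHFB and 13, 10.8 and 10.8 kb in LFDLFB. HFDHFB 2 and LFDHFB 2 overlapped, and the other lists were apart. The mean difference was −3.82 kb, at −2.83 kb with HFB and −4.81 kb with LFB (exact permutation test, p = 0.015, adjusted p = 0.222). In the central region around the gene the HFD lists had 4000 to 8400 bp and the LFD lists 7400 to 9600 bp. The difference had p = 0.05 without HFDHFB 1 (−2.77 kb) and with a flank of 2 kb (−1.05 kb, exact permutation tests). Cldn4 mRNA differed by 0.32 ± 0.23 with HFB and −0.45 ± 0.23 with LFB (log2, SE).

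Cldn8 was covered over 7.40 to 8.03 kb on the HFD (median 7.60 kb, n = 5) and 5 to 7.20 kb on the LFD (median 6.6 kb, n = 6), which did not overlap. As for Tjp1, the share of all windows without overlap was not computed. The difference of 1.24 kb (exact permutation test, p = 0.01, adjusted p = 0.208) was smaller with a flank of 2 kb (0.245 kb, p = 0.62). With a flank of 25 kb it was larger, at 2.55 kb, though its p rose to 0.17, and as a share of covered length it was 2.99 bp per Mb (p = 0.44, exact permutation tests). A region upstream, at −7.07 kb from the start, had 2000 to 3400 bp in the HFD lists and 0 to 1800 bp in the LFD lists.

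The other 6 windows did not pass, though their mean differences were positive, as at Tjp1 and Cldn8 and unlike Cldn4. Cldn15 differed by 1.70 kb (exact permutation test, p = 0.05), Ocln by 2.40 kb (p = 0.31), Cldn2 by 1.82 kb (p = 0.14), Cldn7 by 0.730 kb (p = 0.345), Cldn23 by 0.367 kb (p = 0.72) and Cldn3 by 0.167 kb (p = 0.685). An intron region of Cldn2, 3.45 kb from the start, was found in 4 of the 5 HFD lists and none of the 6 LFD lists. As a share of covered length Cldn3 and Ocln turned negative, with differences of −18.8 bp per Mb (p = 0.01) and −37.4 bp per Mb (p = 0.005, exact permutation tests).

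**Figure D5:**
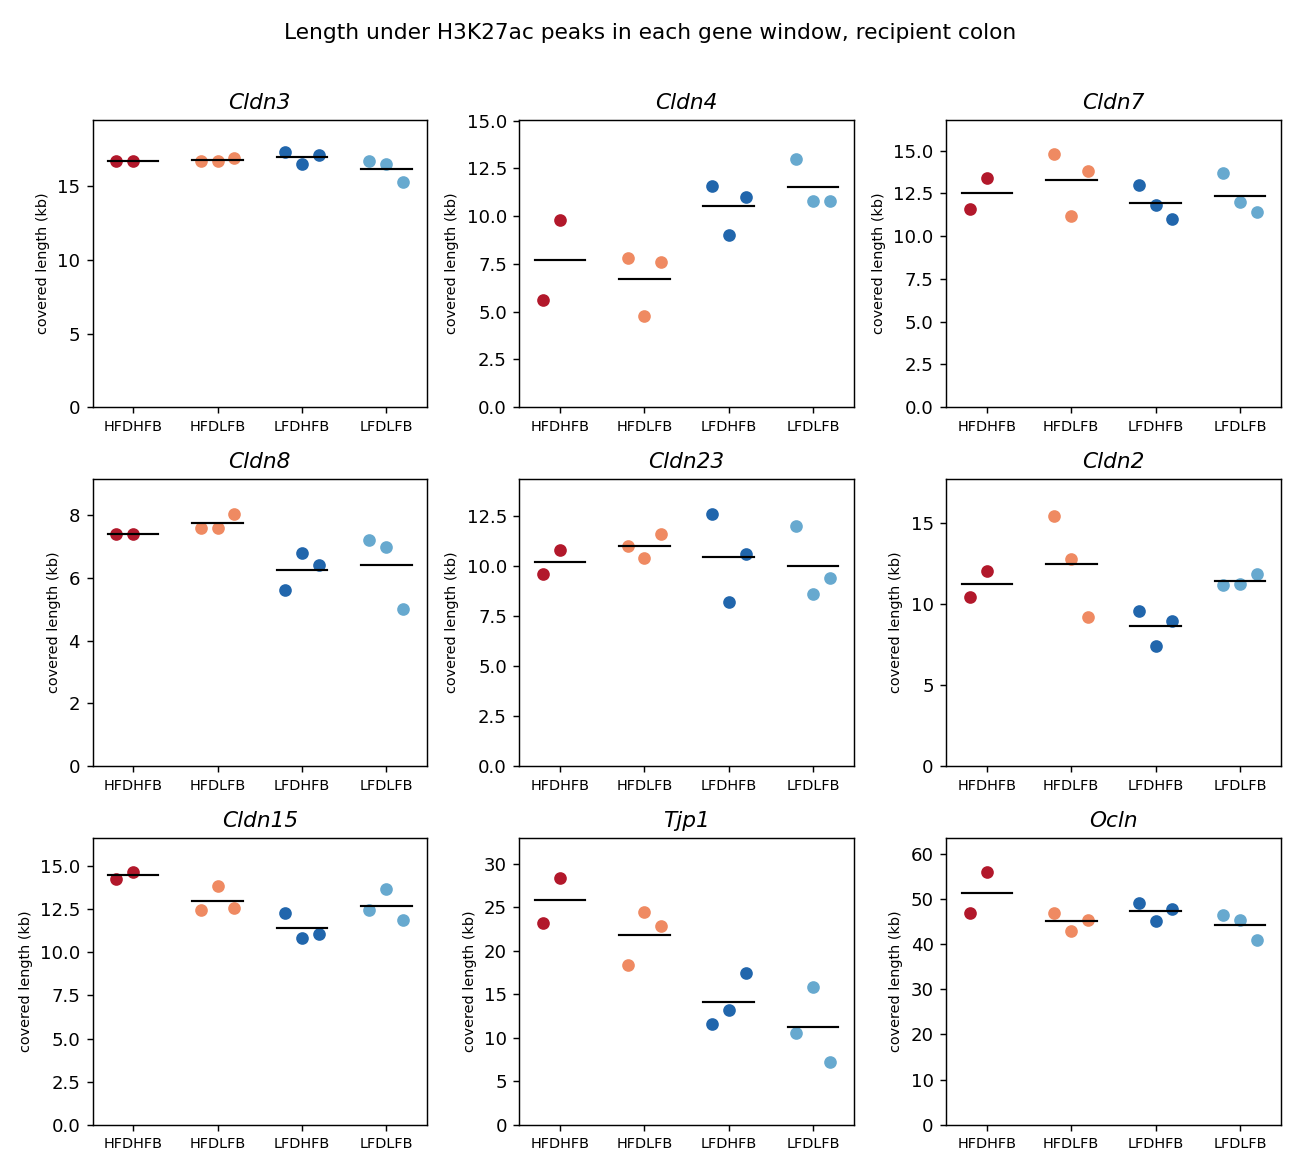
Length of each gene's window under H3K27ac peaks in the recipients (kb), 1 point per list in its group, with a bar at the group mean. At Tjp1 the 5 HFD lists (18.4 to 28.4 kb) lie above the 6 LFD lists (7.20 to 17.4 kb), and at Cldn4 most lie below them.

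Donor bacteria went with a difference at 1 of the 9 windows, where 3.31% of 17841 windows had an unadjusted p under 0.05. Ocln had 46.8 and 56.0 kb in HFDHFB and 49.2, 45.2 and 47.8 kb in LFDHFB, against 46.8, 43.0 and 45.4 kb in HFDLFB and 46.4, 45.4 and 41.0 kb in LFDLFB. The donors overlapped, and the mean difference was 4.73 kb (exact permutation test, p = 0.035, adjusted p = 1). HFDHFB 2 was far above the rest, and without it the difference was 2.43 kb (exact permutation test, p = 0.15). Leaving out each of 6 other lists kept the difference at 3.92 to 5.17 kb while p rose to 0.05 or more, and with a flank of 2 kb it was 3.06 kb (p = 0.155, exact permutation tests). At the other 8 windows the smallest p was 0.12, at Cldn2 (−2 kb) and Tjp1 (3.40 kb, exact permutation tests).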

How the data were processed

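RNA-seq and ChIP-seq of mouse colon epithelium were used as deposited. The authors aligned RNA-seq reads with STAR 2.5 to mm9 and made whole-number counts per gene with featureCounts 1.5.0-p1. For ChIP-seq, the authors called peaks in each library from unique, de-duplicated reads on mm9 with SICER (histone marks, window 200 bp) or HOMER (HNF4α), and the submitters' processing notes also name Bowtie 0.12.8 and Picard 1.110. The deposited lists hold positions only, with no score and no known depth, and the HNF4α peaks of a list all have 1 width. The strand setting of the counting is not given in the sources used here, so reads of a gene and its antisense partner cannot be told apart.

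Counts (39904191 to 48026846 per library) were normalized by TMM and filtered with filterByExpr, and 4 groups were fitted together with the quasi-likelihood test of edgeR 4.0.16 (R 4.3.3), adjusted by Benjamini-Hochberg over 15893 genes. CPM were computed from library totals multiplied by the TMM factors, which ranged from 0.921 (LFDHFB 2) to 1.096 (LFDHFB 3). In counts simulated for HFDHFB against HFDLFB (15871 genes), 31 of 57 genes changed 2-fold, 66 of 72 changed 4-fold and 70 of 71 changed 8-fold were recovered. In the same counts 4 unchanged genes were called. The changes were planted together, among genes above a floor of mean CPM and with independent noise. The shares recovered need not hold for the real comparisons. For peaks, the covered length of each locus extended by 10 kb was compared with a two-sided exact permutation test within sex, diet or donor over all windows (Python 3.11.15, NumPy 2.4.6). Peaks were used as 39 lists, and input libraries were not analysed here. Sequence was read from NCBIM37, the same build as mm9, with GENCODE vM1 annotation. The sequence of 1 site is not reported here.

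All 9 genes are named. Of each other list, genes past an adjusted p of 0.05 in a comparison are named (at most 6), or else the gene with the smallest p, and for each of the 9 genes the 2 genes with the highest Pearson r. The 9 genes and the lists were chosen with earlier results of these data known. Alternatives were DESeq2 1.42.0, its size factors, no filter, fits of the compared groups only, a replicate block, each library left out, flanks of 2 and 25 kb and the share of covered length. Leaving out pairs of libraries was added after seeing the data.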

Additional observations from a re-analysis of the deposited data

Results flagged for a closer look

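The interaction of diet and donor bacteria for Cldn4 mRNA was 0.76 ± 0.33 on the log2 scale (SE), with an unadjusted p of 0.038. It failed the correction over all genes (adjusted p = 0.43, edgeR quasi-likelihood test). An unadjusted p under 0.05 was found for 1 of the 9 genes and for 11.3% of all 15893. The Cldn4 mean was higher with HFB under the HFD and lower under the LFD, and the libraries of the donors overlapped under both diets. Single libraries were not screened for outliers, because no group had more than 3.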

How the results depend on the processing

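For RNA, edgeR called 0 genes in each of the 5 comparisons, with another scaling, no filter, fits of the compared groups or any library left out (0 to 0 calls). DESeq2 called 80 genes for bacteria in HFD-fed mice (18 higher, 62 lower), 126 for the diet with HFB (100 higher, 26 lower), 9 for the diet with LFB and 73 for the interaction, none of them a member. Without HFDLFB 1 and 2, chosen after seeing the data, edgeR called 12, 12 and 3 genes for bacteria in HFD-fed mice, the diet with LFB and the interaction, where the lone HFDLFB library was assumed to vary like the other groups. Of 45 member differences in RNA, 21 changed sign in some setting, none with a call. The replicate block gave 0 RNA calls, and same-numbered libraries had correlations of −0.59 to 0.45, so the numbers were not taken as pairs. With the replicate block of the long-term lists, windows with p under 0.05 numbered 340 (H3K27ac diet), 394 (H3K4me1 diet), 292 (H3K27ac, sexes compared) and 482 (H3K4me1, sexes compared). The recipient lists were not paired, since 5 pairs cannot give a p below 0.0625.

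With a flank of 2 kb, H3K4me1 passed at 1 member for the long-term diets (Tjp1, 2.35 kb, exact permutation test, p = 0.035) and at 1 between the sexes (Cldn2). Over all windows at that flank, H3K4me1 was higher at 334 and lower at 254 for the long-term diets. Between the sexes the numbers were 178 and 540. H3K27ac passed at 0 members for bacteria, and HNF4α had 22 sites, 7 of them in every list. By share of covered length, 1 member passed between the sexes for H3K4me1 (Cldn3), and Cldn3 (−18.8 bp per Mb) and Ocln (−37.43 bp per Mb) reversed for the recipients' diet. That share also moved the split of higher to lower windows from 643 and 76 to 339 and 534 (H3K27ac long-term diet), from 95 and 534 to 445 and 322 (H3K27ac, sexes compared), from 180 and 638 to 433 and 366 (H3K4me1, sexes compared) and from 163 and 427 to 400 and 401 (bacteria). The cause was not tested.

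Leaving out 1 list in turn gave 641 to 1454 windows (H3K27ac long-term diet, highest without HFD male 1), 549 to 1063 (H3K27ac, sexes compared, highest without HFD male 3), 354 to 706 (bacteria) and 1310 to 2765 (recipients' diet, lowest without HFDHFB 2). For H3K4me1 the windows numbered 691 to 832 (long-term diet) and 785 to 955 (sexes compared). Members called numbered 0 to 2 for H3K27ac and 0 to 1 for H3K4me1 under the long-term diets. They numbered 0 to 1 for H3K4me1 between the sexes, 0 to 1 for bacteria and 2 to 4 for the recipients' diet. Tjp1 H3K27ac kept p under 0.05 in the recipients' diet in every such setting, at 9.9 to 12.5 kb. Of 54 member differences in peaks, 26 changed sign in some setting, 2 with a call. Depth behind the peaks is unknown, which limits any reading of a missing peak.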
